A study of Mus musculus with 6 samples.

Results

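*Fth1*, *Ftl1*, *Tfrc*, *Slc11a2*, *Slc40a1*, *Aco1* and *Ireb2* are genes of the iron-responsive element (IRE) system, which couples the translation and the stability of mRNAs to cellular iron. They are 7 of the 23698 gene rows of the count tables, and each had a row of its own, with 0 of the 7 joined to another gene name. The genes were selected on footprint and RNA-seq counts of these same libraries, in which the low translational efficiency of *Ftl1* was already known, together with their place in the IRE system. All values below are therefore a description of the 3 libraries, without a test.

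SCCc are cultured squamous cell carcinoma cells with the genotype HrasG12V; Tgfbr2 fl/fl KO, derived from primary keratinocytes of the back skin of newborn mice and used at passages 10 to 15. An oncogenic *Hras* allele is thus combined with the loss of the TGF-beta receptor gene *Tgfbr2* in a single line. For SCCc 1 library from ribosome profiling and 2 from RNA-seq were used, whereas a long-read RNA-seq library of SCCc and libraries of wild-type keratinocytes were not analysed here. A footprint is a piece of mRNA that a ribosome shields from nuclease, and ribosome profiling counts such pieces, whereas RNA-seq measures the mRNAs themselves. The growth medium contained transferrin and chelated serum, and the iron in it or in the cells was not measured. Nothing in the sources used here says whether the RNA-seq replicates came from separate cultures, so their spread may be technical. Only 1 ribosome profiling library was used here, without a replicate. Its counts on exons summed to 3549555, against 10707930 in RNA-seq replicate 1 and 14003713 in replicate 2. Levels are given as RPKM, which divides the counts by the length of the counted region and by these sums.

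*Hras* had 128 footprints on the coding sequence (CDS) and 1179 and 1619 RNA-seq counts in replicates 1 and 2, and *Tgfbr2* had 193 footprints and 3150 and 3958 counts. Sums over a whole gene show neither a base change nor a deleted exon, so the genotype could not be checked with them. All 9 keratinocyte markers were above 1 RPKM in both RNA-seq libraries, with *Krt5* the most abundant and summed levels of 13518 and 15556 RPKM in RNA-seq and 7224 RPKM in ribosome profiling. Of the 7 fibroblast markers 4 passed this level, with sums of 9.98, 15.6 and 0.469 RPKM in the same order and *Col3a1* the most abundant. Of the 5 leukocyte markers with a row 3 passed it, with sums of 41.8, 50.9 and 11.7 RPKM, mostly from *Cd68*, while *Ptprc* had 5 and 14 RNA-seq counts. The 6 erythroid markers summed to 4.47, 4.75 and 0 RPKM, with *Hbb-bs* the most abundant. The 3 endothelial markers summed to 0.505, 0.591 and 0.724 RPKM, with *Kdr* the most abundant, and the 3 melanocyte markers to 5.35, 5.44 and 0.265 RPKM, mostly from *Pmel*. The part of such cells in the iron gene values was not tested.

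In the IRE system the iron regulatory proteins IRP1, encoded by *Aco1*, and IRP2, encoded by *Ireb2*, bind short mRNA hairpins when iron is scarce. A hairpin in the 5′UTR, as in the ferritin and ferroportin mRNAs, then blocks the recruitment of the small ribosomal subunit, whereas hairpins in the 3′UTR of the transferrin receptor mRNA protect it from decay. When iron is plentiful IRP1 takes up an iron-sulphur cluster and works as an aconitase, and IRP2 is degraded, so that ferritin is made and iron uptake falls. Dividing keratinocytes take up iron mainly as transferrin through the transferrin receptor.

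The hairpins were looked for in the GENCODE M21 transcripts of the 7 genes, since they are the sequence feature that the members are known for. The search pattern was an unpaired C, 5 bases, the loop CAGTGN and 5 further bases that pair with the first 5, counting G with T as a pair. In the windows of 30 bases below, capitals mark the unpaired C and the loop.
Fth1 hairpin: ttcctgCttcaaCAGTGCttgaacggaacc
Ftl1 hairpin: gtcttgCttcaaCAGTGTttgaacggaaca
Slc40a1 hairpin: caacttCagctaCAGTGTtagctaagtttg
Tfrc hairpin 1: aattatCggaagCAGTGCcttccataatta
Tfrc hairpin 2: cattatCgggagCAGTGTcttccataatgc
Tfrc hairpin 3: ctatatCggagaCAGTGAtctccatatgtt
Tfrc hairpin 4: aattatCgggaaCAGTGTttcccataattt
Slc11a2 hairpin: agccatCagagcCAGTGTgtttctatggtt

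On GRCm38 the *Fth1* hairpin lies at chr19:9982732-9982761 on the plus strand and the *Ftl1* hairpin at chr7:45459778-45459807 on the minus strand, each within 1 exon and in the 5′UTR. Their loops start 99 and 90 bases from the annotated 5′ end and 126 and 164 bases before the start codon. The *Slc40a1* hairpin, at chr1:45925464-45925493 on the minus strand, is in the 5′UTR as well, 218 bases before the start codon. The *Tfrc* hairpins are at chr16:32631219-32631248, chr16:32631598-32631627, chr16:32631663-32631692 and chr16:32631710-32631739 on the plus strand, all in the 3′UTR and between 895 and 1386 bases after the stop codon. In these 4 genes all 5 base pairs of the upper stem could form. The *Slc11a2* hairpin, at chr15:100395152-100395181 on the minus strand, lies 44 bases after the stop codon and had 4 of the 5 pairs. Hairpins were found in part of the transcripts annotated for each gene, 5 of 9 for *Fth1*, 2 of 6 for *Ftl1*, 3 of 8 for *Slc40a1*, 2 of 7 for *Tfrc* and 1 of 8 for *Slc11a2*. No such pattern was found in the UTRs of *Aco1* and *Ireb2*. Among all annotated protein-coding genes the pattern with 5 pairs was in 18 of 19108 5′UTRs (0.0942%) and in 103 of 20353 3′UTRs (0.506%). With at least 4 pairs it was in 116 5′UTRs (0.607%) and 716 3′UTRs (3.52%). Only 1 of the 20353 3′UTRs held more than 1 hairpin with 5 pairs, that of *Tfrc*. A match of letters is not a bound site.

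**Figure D1:**
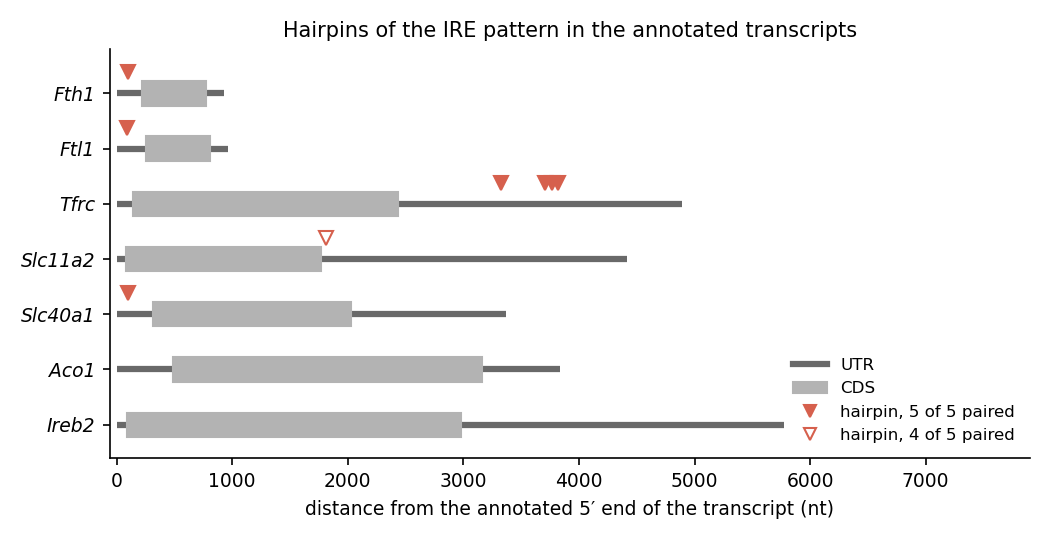
Transcripts of the 7 genes drawn to scale from the annotated 5′ end (x axis, nt), with the UTRs as lines, the CDS as boxes and hairpins of the IRE pattern as triangles. The hairpins of *Fth1*, *Ftl1* and *Slc40a1* lie before the CDS, the 4 of *Tfrc* and the 1 of *Slc11a2* after it.

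The ferritin mRNAs were among the most abundant of SCCc and carried few footprints on the CDS for that level. *Fth1*, which encodes the ferritin heavy chain that oxidizes iron for storage, was at 2574 RPKM in RNA-seq replicate 1 and 2787 RPKM in replicate 2, with 425 RPKM of footprints on the CDS. *Ftl1*, which encodes the light chain that helps to form the iron core, was at 2410 RPKM in replicate 1, 2708 RPKM in replicate 2 and 103 RPKM of footprints. By mean RNA-seq level they ranked 13 and 15 among 20188 rows with a counted CDS, but 436 and 1517 by footprints on the CDS. Together they took 0.605% and 0.634% of all CDS counts in the RNA-seq replicates and 0.0271% of those in ribosome profiling.

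*Tfrc*, which encodes transferrin receptor 1 for the uptake of iron-loaded transferrin, had the reverse relation. Its mRNA was at 17.8 and 15.4 RPKM in replicates 1 and 2, rank 4672, and its footprints at 157 RPKM, rank 1074. It took 0.00566% and 0.00540% of the CDS counts in RNA-seq and 0.0400% in ribosome profiling. The mean RNA-seq level of *Fth1* was 162 times that of *Tfrc*, whereas its footprint density on the CDS was 2.70 times as high, with a 95% counting interval of 2.46 to 2.97. *Ftl1* was at 154 times the RNA-seq level of *Tfrc*, and its footprint density was the lower of the pair, with *Tfrc* 1.52 times as high (1.31 to 1.76). These RNA-seq folds depend on the counted region. Over the CDS, *Fth1* was at 444 and 479 times *Tfrc* in replicates 1 and 2, and *Ftl1* at 88.9 and 105 times.

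The other members were expressed at low to moderate levels. *Slc11a2*, the divalent metal transporter that moves iron out of endosomes, was at 6.52 and 7.04 RPKM in RNA-seq and 15.0 RPKM in footprints on the CDS, with 12.2 and 13.4 RPKM of RNA-seq over the CDS. *Aco1* was at 13.8 and 15.2 RPKM with 21.2 RPKM of footprints, and *Ireb2* at 29.9 and 23.9 RPKM with 23.5 RPKM of footprints. Thus the mRNA of IRP2 was above that of IRP1 in both replicates, while their footprint densities, with *Aco1* at 0.901 times *Ireb2*, had a counting interval of 0.747 to 1.09 that includes equality. *Slc40a1*, the iron exporter ferroportin, had 5.96 and 6 RNA-seq counts, or 0.165 and 0.127 RPKM. It had 0 footprints on the CDS, where 3 counts would be 0.494 RPKM and the 95% Poisson interval reaches 3.69 counts, and 1 on the 5′UTR, so its translation was not measurable at this depth. By mean RNA-seq level over exons the members ran from *Fth1* and *Ftl1* through *Ireb2*, *Tfrc*, *Aco1* and *Slc11a2* to *Slc40a1*. The means of *Fth1* (2680 ± 151 RPKM, SD, n = 2) and *Ftl1* (2559 ± 211) differed by less than their spread between replicates, but this holds over exons only. Over the CDS *Fth1* was at 5.0 times *Ftl1* in replicate 1 and 4.56 times in replicate 2. The means over exons of *Tfrc* (16.6 ± 1.72) and *Aco1* (14.5 ± 0.973) lay close as well, with 15.4 and 15.2 RPKM in replicate 2, and their order turned over the CDS. There *Aco1* was at 17.4 and 19.5 RPKM and *Tfrc* at 16.6 and 16.2 RPKM in replicates 1 and 2.

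**Figure D2:**
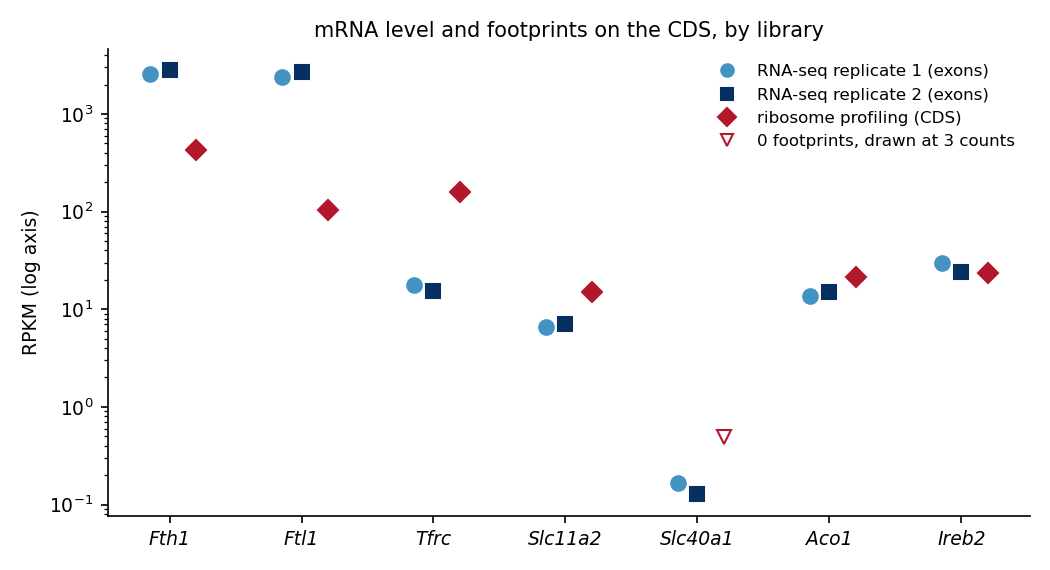
RPKM of each gene on a log axis, with RNA-seq replicates 1 and 2 counted on exons and footprints counted on the CDS. The footprints of *Fth1* (425) and *Ftl1* (103) lie below their RNA-seq levels and those of *Tfrc* (157) above, and the open triangle of *Slc40a1* marks 0 footprints at the level of 3 counts.

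Translational efficiency (TE) divides the footprint RPKM of the CDS by the RNA-seq RPKM of the exons, averaged over both replicates. It is given as log2 after subtracting the median of the 9863 genes kept by the filters. Genes had to be above 1 RPKM in both RNA-seq libraries, with a base mean (mean count over the 3 libraries scaled for depth) above 25 and footprints on a counted CDS. The filters kept 6 of the 7 members, without *Slc40a1*. Of these 6, 2 were below -1, *Ftl1* and *Fth1*, as were 21.1% of all genes, and 1 was above 1, *Tfrc*, as were 20.8% of all genes. Since the members were selected on such values, their counts are not read against these shares.

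*Ftl1* had the lowest log2 TE of the members, -4.88 against RNA-seq replicate 1 and -5.06 against replicate 2, and -4.97 against their mean (± 0.13, SD over 2 RNA-seq replicates). The 202 footprints on its CDS give this value a 95% Poisson interval of -5.18 to -4.77, and it stood at rank 27 from the lowest. The 26 genes below it had between 0.242 and 5 footprints each. *Fth1* was at -2.93 and -3.07 against the replicates and at -3.00 against their mean (± 0.093), with an interval of -3.11 to -2.89 from 666 footprints. Of the 253 genes below *Fth1*, 6 had at least 100 footprints. The 18 other genes among the 20 with the highest RNA-seq levels had log2 TE from -2.17 to 2.70, so the ferritin genes were the lowest of these 20 by this measure. This does not extend to a longer list for *Fth1*. *Txnip*, at rank 63 by RNA-seq level and named after its value was seen, was lower than *Fth1* at -3.58. The order of the ferritin genes depended on where the RNA-seq reads were counted, since with RNA-seq over the CDS in place of exons *Fth1* was at -4.20 and *Ftl1* at -3.99. The exon length of *Fth1* included 569 nt outside its CDS and UTRs that held 0 counts in RNA-seq replicate 1. With RNA-seq counted over the CDS and UTRs alone, an alternative chosen after seeing the data, *Fth1* was at -3.80.

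*Tfrc* was at 2.81 against replicate 1 and 3.0 against replicate 2, and at 2.90 against their mean (± 0.14), with an interval of 2.82 to 2.98 from 1278 footprints. It stood at percentile 97.5 of the passing genes, with 245 genes above it, 206 of them with at least 100 footprints. Its distance from *Fth1* was 5.90 on the log2 scale (5.77 to 6.04 from counting error) and from *Ftl1* 7.88 (7.66 to 8.09). These intervals leave out the choice of region. With RNA-seq over the CDS *Tfrc* was at 3.21 and *Fth1*, at -4.20, was farther from it than *Ftl1*, at -3.99. The 3 other passing members lay close to the median gene. *Slc11a2* was at 0.80 (0.86 and 0.74 against the replicates, interval 0.49 to 1.09), *Aco1* at 0.21 (0.28 and 0.13, interval 0.00 to 0.41) and *Ireb2* at -0.54 (-0.68 and -0.38, interval -0.72 to -0.35). The order of *Slc11a2* and *Aco1* turned with counts not divided by length (0.13 and 0.57), and *Aco1* was at -0.19 when 100 counts were required of a gene in each library, so no direction is given for it.

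**Figure D3:**
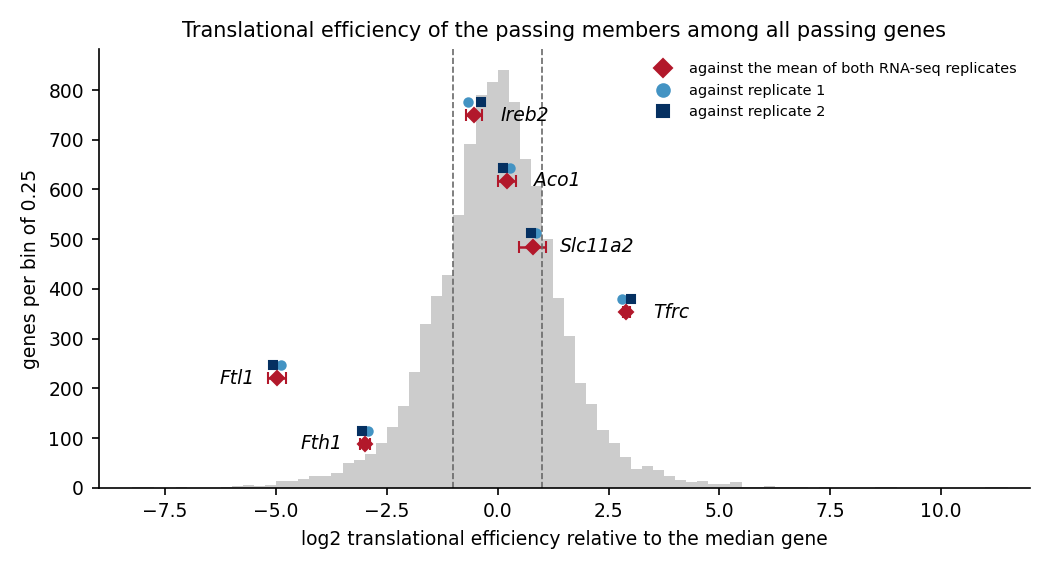
Histogram of log2 TE of 9863 genes, with the 6 passing members as diamonds, their 95% Poisson intervals of the footprint count as bars, and the values against each RNA-seq replicate as small symbols; their height has no meaning and dashed lines mark -1 and 1. *Ftl1* (-4.97) and *Fth1* (-3.00) lie in the left tail, *Tfrc* (2.90) in the right tail and *Slc11a2*, *Aco1* and *Ireb2* between the lines.

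The footprint reads of both ferritin genes were counted mostly on the 5′UTR. *Fth1* had 1135 footprints on the 224 nt of its 5′UTR, 666 on the 441 counted nt of its CDS and 10.2 on the 103 counted nt of its 3′UTR, so that 62.7% of them were on the 5′UTR. *Ftl1* had 309 on 255 nt of 5′UTR, 202 on 549 nt of CDS and 4.35 on 166 nt of 3′UTR, with 60.0% on the 5′UTR. Among 6601 passing genes with at least 30 footprints on these regions and a 5′UTR of at least 60 nt, the median share was 4.94%, and 60 genes (0.909%) had over 50%. In *Tfrc*, *Slc11a2*, *Aco1* and *Ireb2* the share was 1.66%, 3.14%, 4.09% and 0.791%, between percentiles 11.5 and 44.5. Per nt, the footprint density of *Fth1* was 3.36 times as high on the 5′UTR as on the CDS, a log2 ratio of 1.75 with a 95% Clopper-Pearson interval of 1.61 to 1.89. For *Ftl1* it was 3.30 times as high, a log2 ratio of 1.72 (1.46 to 1.99). The 5′UTR was denser than the CDS in these 2 of the 6 members and in 18.9% of 5193 genes with enough counts, of which 67 stood above *Fth1* and 72 above *Ftl1*. In the others the log2 ratio was -2.06 in *Tfrc* (-2.74 to -1.46), -1.02 in *Slc11a2* (-3.12 to 0.47), -1.43 in *Aco1* (-2.61 to -0.45) and -2.40 in *Ireb2* (-5.51 to -0.51), against a median of -1.21 over all these genes. Divided by the RNA-seq ratio, the value of *Aco1* turned to 0.25, and those of *Tfrc*, *Slc11a2* and *Ireb2* were -0.48, -0.16 and -1.65.

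In RNA-seq the ferritin genes differed from each other. *Ftl1* had 57.1% of its counts on the 5′UTR in replicate 1 and 57.3% in replicate 2, so its RNA-seq reads were concentrated there as much as its footprints. Its density on the 5′UTR was 3.54 and 3.46 times that on the CDS, and the ratio in footprints was 0.09 lower on the log2 scale than the mean of these. *Fth1* had 899 counts on the 5′UTR in replicate 1 and 2909 in replicate 2, against 34914 and 47962 on the CDS, or 2.44% and 5.58% of its counts. Per nt, RNA-seq counts on its 5′UTR were 19.7 times lower than on the CDS in replicate 1 and 8.38 times lower in replicate 2, and the log2 footprint ratio stood 5.43 above the mean log2 ratio of RNA-seq. On the 3′UTR of *Fth1* RNA-seq counts per nt were likewise 7.90 and 8.60 times lower than on the CDS in replicates 1 and 2. The value of 5.43 therefore also holds a CDS density in RNA-seq that was high against both UTRs. In footprints alone the 5′UTR ratios of *Fth1* and *Ftl1*, 1.75 and 1.72, lay close. The replicates differed on the 5′UTR of *Fth1*, at 375 and 927 RPKM, a ratio of 2.47 at percentile 99.8 of the 638 rows with at least 100 counts on the 5′UTR in both. On the CDS of *Fth1* the ratio was 1.05, and on the 5′UTR of *Ftl1* 1.13.

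Counts on a region do not show where in the 5′UTR the footprints lay, so their place relative to the printed hairpins is not known from these data. Nor do they show whether each counted piece was shielded by a ribosome, so the 5′UTR counts are not read as translation there. Other transcripts share sequence with the ferritin genes. All 226 stretches of 28 bases in the 5′UTR of *Ftl1*, 96.0% of those in its CDS and 91.2% of those in its 3′UTR were also found on either strand of annotated transcripts of other genes. All of these 5′UTR stretches were in *Gm10252*, and such a match does not tell its strand. Of the 226 stretches 67.3% were also in *Gm47428*, annotated as antisense, and 61.9% in *Ftl1-ps1*, a ferritin light chain copy. For *Fth1* the shares were 0% in the 5′UTR, 26.1% in the CDS and 0% in the 3′UTR, and for *Tfrc* 0% in each region. The counting strand and the handling of reads with several matches are not given in the sources used here, so the counts of *Ftl1*, and to a lesser degree those on the CDS of *Fth1*, are uncertain. The CDS of *Fth1* was counted over 441 of 549 annotated nt. The rows of the paralogues *Ftmt* and *Fthl17* held 0 counts in all 3 libraries.

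**Figure D4:**
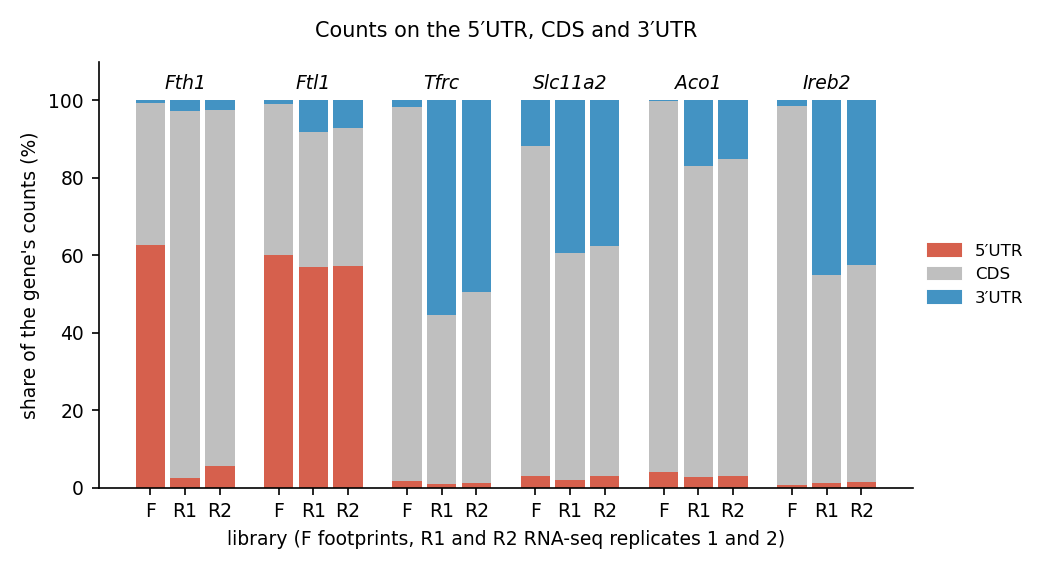
Share of each gene's counts (y axis, %) on the 5′UTR, CDS and 3′UTR in ribosome profiling (F) and RNA-seq replicates 1 and 2 (R1, R2). In *Fth1* the 5′UTR holds 62.7% of footprints but 2.44% and 5.58% of RNA-seq counts, whereas in *Ftl1* it holds 60.0%, 57.1% and 57.3%.

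On the 3′UTR, where the *Tfrc* and *Slc11a2* hairpins lie, footprints were sparse. *Tfrc* had 22.2 footprints on 2458 nt of 3′UTR and 1278 on 2289 nt of CDS, a log2 density ratio of -5.95 (-6.63 to -5.35), close to the median of -5.96 over 9164 genes. Its RNA-seq reads covered the 3′UTR and the CDS alike, with 518 and 523 counts on the 3′UTR and 408 and 520 on the CDS, or 1.18 and 0.937 times the density of the CDS in replicates 1 and 2. The mean RNA-seq ratio stood at percentile 87.6. *Slc11a2* had 13 footprints on 3745 nt of 3′UTR, a ratio of -3.94 (-4.90 to -3.09), with RNA-seq ratios of -1.66 and -1.76. The annotated transcript with the *Slc11a2* hairpin has 2650 nt of 3′UTR, so the values of this row are not those of that transcript alone. *Aco1* had 0.40 and *Ireb2* 3.28 footprints on the 3′UTR, with ratios of -7.85 and -6.15 whose intervals spanned more than 3 log2 units. The ferritin genes were at -3.93 for *Fth1* (-4.99 to -3.05) and -3.81 for *Ftl1* (-5.60 to -2.48), on 10.2 and 4.35 footprints. In RNA-seq *Fth1* was at -2.98 and -3.10, so that its footprint ratio was 0.89 below the RNA-seq mean, and *Ftl1* was at -0.36 and -0.60. None of the 6 members had a 3′UTR density above that of the CDS in footprints, as was the case for all but 0.546% of the 9164 genes.

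**Figure D5:**
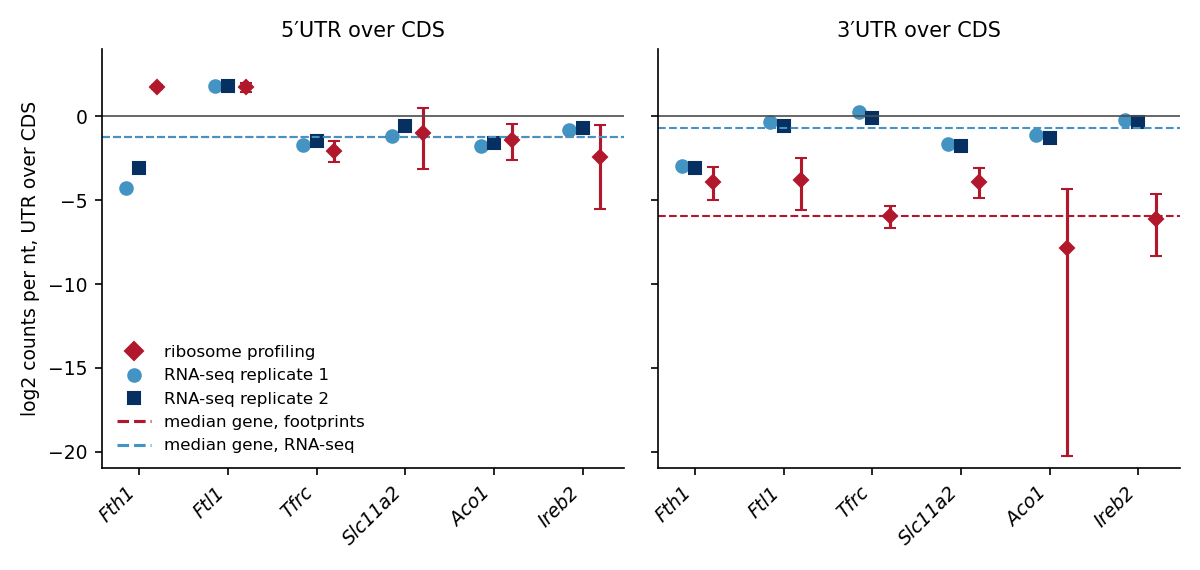
Log2 ratio of counts per nt on the 5′UTR (left) or 3′UTR (right) to those on the CDS, for footprints with 95% Clopper-Pearson intervals and for RNA-seq replicates 1 and 2, with dashed lines for the median gene. On the 5′UTR the footprint ratios of *Fth1* (1.75) and *Ftl1* (1.72) lie above 0 while the RNA-seq ratios of *Fth1* (-4.30 and -3.07) lie below, and on the 3′UTR all footprint ratios are below -3.

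Among 74 other iron gene names, 71 had a row and 57 passed the filters. Their median log2 TE was 0.22, with 11 above 1 (19.3%) and 13 below -1 (22.8%), close to the 20.8% and 21.1% of all genes. The highest and lowest genes given for a list had 30 counts or more in each library, unless said otherwise. Of other mRNAs known to carry an IRE, *Cdc14a* was at -0.20 on 12 footprints, *Epas1*, which encodes HIF2 alpha, was at -1.52 on 19.2 footprints and *Cdc42bpa* at -1.15, while erythroid *Alas2* had 1.22 and 3.15 RNA-seq counts and did not pass. Of the regulators of the IRPs and of ferritin turnover 9 passed, with a median of 0.07. *Ncoa4*, the receptor that takes ferritin to lysosomes, was at 3.30 and *Skp1a* at 1.72. *Fbxl5*, the iron-sensing subunit of the ligase that degrades IRP2, was at -1.33 and *Herc2* at -1.10. *Usp35*, named after its value was seen, was lower at -2.27 on 5 footprints. Of 12 genes of iron uptake and reduction 4 passed, with a median of 0.98, among them the ferrireductase genes *Steap1* at 1.91 and *Steap2* at 1.44, and the metal transporter *Slc39a14* at 0.53. The fourth, *Steap3*, named after its value was seen, was at -2.79 on 15.6 footprints. Of 5 genes of iron export and oxidation 1 passed, *Hephl1*, named after its value was seen, at -2.59 on 3 footprints.

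For mitochondrial iron and iron-sulphur cluster assembly 25 of 26 genes passed, with a median of 0.62, 5 above 1 and 4 below -1. *Ciapin1* was at 2.11 and *Fdx1* at 2.05, and the lowest with at least 30 counts in every library were *Hscb* at -2.24 and the mitochondrial iron importer *Slc25a28* at -1.64. Outside these values lay *Lyrm4* at 2.80 on 21.7 footprints and *Slc25a37* at -2.48 on 23.8, both named after their values were seen. For haem synthesis and handling 14 of 16 genes passed, with a median of 0.01, 2 above 1 and 2 below -1. *Alad* was at 2.82 and *Cpox* at 1.14, and the lowest with at least 30 counts in every library were *Blvrb* at -0.43 and *Fech*, which inserts iron into the haem ring, at -0.30. The 2 below -1 had fewer footprints and were named after their values were seen, *Ppox* at -1.48 on 24.6 and *Slc46a1* at -1.38 on 13.2. With the exception of *Ncoa4*, no named gene of these lists was as far above the median gene as *Tfrc*, and none was as far below it as *Fth1*.

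By Euclidean distance over log2 RPKM in the 3 libraries among the 4829 genes that had 100 counts or more in each, the nearest to *Ftl1* was *Fth1* at 2.04, followed by *Pabpc1* at 2.15 and *Col17a1* at 2.55. Nearest to *Fth1* were *Rplp0* at 1.42, *Krt17* at 1.78 and *Eef2* at 1.82. Their log2 TE of -1.29, -0.85 and -2.17 was above that of *Fth1*. Nearest to *Tfrc* were *Gm5803* at 0.26, *Cbx5* at 0.28 and *Tmco1* at 0.30, with log2 TE of 2.78, 3.21 and 2.90. The distances were also taken with RNA-seq over the CDS, which was chosen after seeing the data, and 4 of the 9 genes stayed among the 3 nearest. *Fth1* was then at 3.79 from *Ftl1*, at rank 105, and *Pabpc1* was nearest at 1.39. *Eef2* was nearest to *Fth1* at 1.80, and none of the 3 genes named for *Tfrc* was among its 3 nearest. Under either count the nearest gene of each ferritin was farther away than that of *Tfrc*, whose smallest distance over the CDS was 0.22. No such distance is given here for other genes as abundant as the ferritin genes, so this is not read as a trait of ferritin.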

How the data were processed

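Per the authors' methods, reads were trimmed with Trim Galore and aligned to GRCm38 with STAR 2.6.1. Footprint reads were cleared of rRNA, tRNA and mitochondrial sequences with Bowtie2 2.4.1, and exons and CDS were counted with Plastid. The annotation release used for counting is not given in the sources used here. The authors deposited, for exons, CDS and UTRs, estimated counts that need not be whole, the counted length, and RPKM values with a larger library total. RPKM was recomputed here on the sum of exon counts with Python 3.11.15, numpy 2.4.6 and pandas 2.3.3, and intervals with scipy. Counts were rounded for the DESeq2 size factors of the base mean. With 1 condition analysed here, no test was run. Members and gene lists were chosen with earlier results of these data known. Named genes were the 7 members and ferritin paralogues, per list the 2 highest and 2 lowest in log2 TE with at least 30 counts in every library and other IRE genes, the 3 nearest genes of *Ftl1*, *Fth1* and *Tfrc*, *Hras*, *Tgfbr2* and cell type markers. Some genes named by this rule are not reported here. Over 9863 genes the chi-square between the RNA-seq replicates was 7.52 per degree of freedom, above sampling noise. They were kept as 2 replicates, as labelled, since this value cannot tell separate cultures from separate library preparations. The calculation was tested on simulated data. Intervals and floors cover counting error only. They understate it where reads are PCR copies, which are not independent molecules. The estimated counts, though not always whole, were put into formulas for whole counts. Alternatives covered pseudocount, filters, regions, scaling (DESeq2 and edgeR TMM) and single replicates.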

Additional observations from a re-analysis of the deposited data

How the results depend on the processing

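*Ftl1* and *Fth1* stayed below -1 and *Tfrc* above 1 in log2 TE under every alternative run. TE kept within the spread between RNA-seq replicates with a pseudocount, without a filter and with deposited RPKM. It did so with DESeq2 or TMM scaling too, but subtracting the median gene removes a library's scaling, so this could hardly move it. Without replicate 1 or 2 log2 TE ranged from -5.06 to -4.88 for *Ftl1*, from -3.07 to -2.93 for *Fth1* and from 2.81 to 3.0 for *Tfrc*. With RNA-seq over the CDS, TE was -3.99 for *Ftl1*, -4.20 for *Fth1*, 3.21 for *Tfrc* and 0.18 for *Slc11a2*. Without division by length it was -4.78, -3.59, 0.13 and 0.57 for *Ftl1*, *Fth1*, *Slc11a2* and *Aco1*. With at least 100 counts required, which moves the median gene, it was -5.36, -3.39, 2.51, -0.19 and -0.93 for *Ftl1*, *Fth1*, *Tfrc*, *Aco1* and *Ireb2*, and *Slc11a2* was left out. Of 2 alternatives chosen after seeing the data, RNA-seq over the CDS and UTRs gave -3.80 for *Fth1*, and footprints over exons gave -3.61, -2.33, 2.68, 0.18 and 0.44 for *Ftl1*, *Fth1*, *Tfrc*, *Slc11a2* and *Aco1*.

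Other iron genes above 1 numbered 5 with the minimum of 100 counts, and those below -1 numbered 5 with it and 8 without division by length. That minimum also cut all passing genes from 9863 to 4829, so the counts of 5 are not read as a change. Divided by the RNA-seq ratio, the log2 ratio of 5′UTR to CDS turned to -0.09 for *Ftl1* and 0.25 for *Aco1*, and was 5.43 for *Fth1* and -0.48 for *Tfrc*, the first because the RNA-seq ratio of *Ftl1* is as high. Without length it was 0.62, 0.77, -5.87, -4.76, -4.55 and -6.95 for *Ftl1*, *Fth1*, *Tfrc*, *Slc11a2*, *Aco1* and *Ireb2*. For the 3′UTR, *Fth1* was at -0.89 and *Slc11a2* at -2.23 over RNA-seq, and at -6.03 and -2.85 without length. On the CDS the RNA-seq level was 1591, 7580, 0.288, 12.8 and 18.5 RPKM for *Ftl1*, *Fth1*, *Slc40a1*, *Slc11a2* and *Aco1*. Of the 9 distances to the nearest genes, 5 left the 3 nearest with RNA-seq over the CDS, also chosen after seeing the data. The cause of other shifts was not tested.

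No paired analysis was possible because only 1 condition was analysed here, and no test was run. With 1 ribosome profiling library, intervals cover counting error only and miss the spread between cultures. UTR ratios of *Slc11a2*, *Aco1* and *Ireb2* rest on 13 footprints or fewer per region, and with 100 footprints required on the CDS *Slc11a2* has no percentile. Counts of *Ftl1* can hold reads of its copies and of other transcripts that share its sequence. TE is relative to other genes of the same cells, not to another condition.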
